A study of Mus musculus with 90 samples.

Results

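The 33 genes described here belong to the endoplasmic reticulum (ER) stress response and to the ATF4 response, and were followed in mouse tumour cells exposed to interferon gamma (IFNγ). They are 33 of the 53697 genes in the count table and were chosen by name, with earlier results of these data known. They comprise 17 chaperone and ER quality control genes and 16 ATF4 response genes that include Atf4 itself. The measurement was a count per gene from 3′ sequencing in 2 established mouse cell lines, the melanoma line YUMM2.1 and the colon carcinoma line CT26. There were 15 groups of 3 samples in each line and 90 samples in all. Whether reads or molecular identifiers were counted is not given in the sources used here. The counts are called reads below. Control cells received 0 IU/mL IFNγ and were harvested at 0, 1, 2 and 3 weeks of culture. The study describes the 0-week control as untreated. Naive cells were given 50 IU/mL IFNγ in week 0, for 2 h or 24 h. Chronically exposed cells spent 1, 2 or 3 weeks in IFNγ at 50 IU/mL before harvest without (0 h) or with a rechallenge by IFNγ of 2 h or 24 h. All groups shared RPMI-1640 medium with serum and were plated anew before the last 48 h, and no group was given a drug that disturbs the ER. Each line derives from 1 tumour, so a difference between the lines cannot be told apart from a difference between 2 single tumours. The RNA is said to come from triplicate experiments, and the study describes its replicates in general as independent and biological, without saying how the 3 cultures of a group were kept apart.

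The ER folds secreted and membrane proteins. When unfolded protein accumulates there, the sensors IRE1 (gene Ern1), ATF6 and PERK (gene Eif2ak3) raise the level of chaperones such as BiP, encoded by Hspa5, and of the machinery that returns misfolded proteins to the cytosol for degradation. PERK also phosphorylates the initiation factor eIF2α, as do the kinases GCN2 (Eif2ak4) upon amino acid shortage and PKR (Eif2ak2) upon double-stranded RNA. Translation of most mRNAs then falls while that of Atf4 mRNA rises, and the ATF4 protein switches on genes of amino acid synthesis and uptake, one-carbon metabolism and cell death. Because ATF4 is controlled at translation, the level of its mRNA is not the level of the protein. PKR is itself encoded by an interferon-stimulated gene.

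The promoters of some of the members called most often in the comparisons are shown first, with the response elements of the pathways. Comparisons added after the first results were left out of that ranking. ATF4 binds, with C/EBP proteins, a C/EBP-ATF response element (CARE), searched here as TGATGNAA. ATF6 and XBP1 act through the ER stress response element (ERSE), searched as CCAAT and CCACG set 9 bases apart, and through the unfolded protein response element (UPRE), searched as TGACGTGG. The letters were sought on both strands in RefSeq windows of the GRCm38.p6 build that run from 250 bases before to 50 bases after each annotated start, and the 3 searches may overlap each other. Windows were at hand for 15 of the 17 chaperone genes and 15 of the 16 ATF4 genes, and none for Hyou1, Manf and Slc7a5. An ERSE stood in 6 of the 15 chaperone genes (40%; Hspa5, Hsp90b1, Pdia6, Dnajc3, Creld2 and Syvn1), in 0 of the 15 ATF4 genes, and in 39 of all 32851 windows (0.119%). A CARE stood in 5 of the 15 ATF4 genes (33.3%; Trib3, Chac1, Asns, Slc7a11 and Vldlr), in 1 of the 15 chaperone genes (6.67%; Herpud1) and in 1304 of all windows (3.97%). No member window held the UPRE letters, which 222 windows (0.676%) did. A gene was counted when any of its windows matched, whereas the shares of all are per window. Vldlr had a CARE in 1 of its windows and not in another. The ERSE was first described in chaperone promoters, and a match of letters is a description rather than a binding site. Variants of the 3 elements with another spacing or other letters were not sought, so a window without a match may still hold one. The sequences run 5′ to 3′ on the strand of the gene, with the matched element in capitals. Herpud1 (chr8:94386179-94386478, + strand) has a CARE on the opposite strand that begins 112 bases before the start.
Herpud1: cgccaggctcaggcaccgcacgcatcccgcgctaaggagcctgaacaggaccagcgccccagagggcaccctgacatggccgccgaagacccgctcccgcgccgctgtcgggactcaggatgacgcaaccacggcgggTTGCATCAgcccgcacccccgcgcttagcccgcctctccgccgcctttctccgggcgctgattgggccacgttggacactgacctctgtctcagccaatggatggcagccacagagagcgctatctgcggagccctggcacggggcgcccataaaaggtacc
Hspa5 (chr2:34771840-34772139, + strand) has an ERSE that begins 65 bases before the start.
Hspa5: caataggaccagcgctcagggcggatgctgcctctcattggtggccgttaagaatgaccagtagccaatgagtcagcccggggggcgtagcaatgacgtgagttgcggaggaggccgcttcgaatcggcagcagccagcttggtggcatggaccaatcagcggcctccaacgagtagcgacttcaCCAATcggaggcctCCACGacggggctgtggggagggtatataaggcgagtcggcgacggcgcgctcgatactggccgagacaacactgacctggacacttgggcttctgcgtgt
Pdia6 (chr12:17266339-17266638, + strand) has an ERSE that begins 98 bases before the start.
Pdia6: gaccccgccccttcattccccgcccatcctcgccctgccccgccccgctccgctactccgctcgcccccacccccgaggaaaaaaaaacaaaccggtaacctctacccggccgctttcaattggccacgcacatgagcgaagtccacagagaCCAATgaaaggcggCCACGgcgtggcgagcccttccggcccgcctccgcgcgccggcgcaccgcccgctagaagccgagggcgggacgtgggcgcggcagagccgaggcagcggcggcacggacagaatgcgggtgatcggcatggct
Pdia4 (chr6:47813463-47813762, − strand) held none of the 3 elements.
Pdia4: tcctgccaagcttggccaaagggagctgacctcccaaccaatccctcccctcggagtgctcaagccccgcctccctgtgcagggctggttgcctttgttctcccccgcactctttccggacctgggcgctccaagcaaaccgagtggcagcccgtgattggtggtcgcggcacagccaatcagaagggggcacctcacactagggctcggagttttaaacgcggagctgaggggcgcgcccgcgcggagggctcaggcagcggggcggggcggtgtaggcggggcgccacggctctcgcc
Among the ATF4 genes, Trib3 (chr2:152344011-152344310, − strand) has a CARE on the opposite strand that begins at base 15 after the start.
Trib3: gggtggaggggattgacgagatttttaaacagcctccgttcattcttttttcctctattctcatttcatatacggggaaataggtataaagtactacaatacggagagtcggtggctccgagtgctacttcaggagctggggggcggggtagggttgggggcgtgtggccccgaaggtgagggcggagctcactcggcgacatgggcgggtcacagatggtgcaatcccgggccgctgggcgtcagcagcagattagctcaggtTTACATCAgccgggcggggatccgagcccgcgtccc
Asns (chr6:7693160-7693459, − strand) has a CARE that begins 23 bases before the start.
Asns: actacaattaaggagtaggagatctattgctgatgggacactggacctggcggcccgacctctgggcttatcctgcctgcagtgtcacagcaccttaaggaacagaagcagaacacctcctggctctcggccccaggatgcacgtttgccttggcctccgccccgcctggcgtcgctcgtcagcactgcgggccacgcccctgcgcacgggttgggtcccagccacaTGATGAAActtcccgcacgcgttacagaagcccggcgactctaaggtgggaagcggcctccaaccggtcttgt
The windows of Shmt2 (chr10:127522395-127522694, − strand) and Mthfd2 (chr6:83317555-83317854, − strand) held none of the 3 elements.
Shmt2: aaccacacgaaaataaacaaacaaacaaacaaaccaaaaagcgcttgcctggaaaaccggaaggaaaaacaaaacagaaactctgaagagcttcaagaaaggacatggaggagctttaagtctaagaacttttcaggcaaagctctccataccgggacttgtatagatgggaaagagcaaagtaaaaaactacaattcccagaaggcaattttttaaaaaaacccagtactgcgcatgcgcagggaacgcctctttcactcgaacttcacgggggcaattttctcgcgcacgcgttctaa
Mthfd2: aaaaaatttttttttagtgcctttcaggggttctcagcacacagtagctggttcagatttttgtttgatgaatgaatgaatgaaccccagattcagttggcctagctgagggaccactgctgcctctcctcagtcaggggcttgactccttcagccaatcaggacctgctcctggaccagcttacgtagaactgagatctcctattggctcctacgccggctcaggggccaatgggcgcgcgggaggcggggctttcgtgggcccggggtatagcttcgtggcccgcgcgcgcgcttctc

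Levels are given as CPM, the counts of a gene per 1000000 counts of the library, scaled between all 90 samples by the trimmed mean of M values (TMM), and differences as log2 fold changes with their standard error (SE). A gene was called different when its p from edgeR's quasi-likelihood test, adjusted by the Benjamini-Hochberg method over all genes tested, was below 0.05. Total counts per YUMM2.1 sample ran from 274719 to 3161276, and per CT26 sample from 295157 to 2205285. Of the 90 libraries 3 lay below 25% of the median of their line, namely the third samples of CT26 after 1 week and 3 weeks of IFNγ without rechallenge and of YUMM2.1 after 3 weeks of IFNγ without rechallenge. Irf1, an early IFNγ target, was called higher in both naive and all 3 chronic comparisons of each line, and rose after 2 h in naive cells from a YUMM2.1 mean of 8.28 to 144 CPM and a CT26 mean of 7.89 to 87.5 CPM (n = 3 each). Of 8 melanocytic markers, Mitf, Sox10 and S100b exceeded a mean of 1 CPM in YUMM2.1 while Tyrp1 was at 0 counts and Mlana at 1. Mitf and Dct exceeded 1 CPM in CT26 as well, with 144 counts of Mitf in YUMM2.1 against 147 in CT26 and 56 of Dct against 127. Sox10 had 2007 counts against 0 and S100b 5803 against 44, and the summed list ran from 53.1 to 137 CPM against 1.02 to 17.5 CPM in CT26. Of 8 markers of colon epithelium, Krt18 and Krt20 exceeded 1 CPM in CT26, with Epcam, Krt19 and Vil1 at 0 in all 45 samples, and the summed list ran from 44.995 to 134 CPM against 0 to 2.82 CPM in YUMM2.1. The T cell marker Cd3e was at 0 in both lines. The 6 immune markers summed in YUMM2.1 to 0 to 20.6 CPM, and to 1.35 to 16.6 CPM in CT26, and the 5 fibroblast markers, mainly Col3a1, to 37.5 to 118 and 2.77 to 19.3 CPM.

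Enough reads for a test within a line were found for 32 members in YUMM2.1 (17 chaperone genes and 15 ATF4 genes, with Sesn2 left out) and 30 members in CT26 (14 and 16, with Dnajb9, Sdf2l1 and Syvn1 left out). In the fit over both lines all 33 were tested. Abundant members kept to a narrow range over the 15 groups of a line. The group mean of Hsp90b1, the ER form of HSP90, lay in YUMM2.1 between 1052 and 1356 CPM, while CT26 groups lay between 720.005 and 915 CPM. That of Hspa5 lay in YUMM2.1 between 299.8 and 436 CPM, while CT26 groups reached from 295 to 577 CPM. Among members with over 1000 counts in a line the widest ratio of group means was that of Trib3, a pseudokinase induced by ATF4, in CT26, from 16.4 to 58.4 CPM. The members with the fewest reads were Sesn2, Cebpb, Chac1, Syvn1 and Dnajb9 in YUMM2.1 (198 to 301 counts over 45 samples) and Syvn1, Dnajb9 and Sdf2l1 in CT26 (109 to 189 counts). Whether the counting used strand is not given in the sources used here. Atf5, Cebpb, Ddit3 and Syvn1 share exonic bases with another gene whose reads come to over 10% of theirs, so their values are uncertain. In bulk samples fewer cells with a transcript and less of it per cell cannot be told apart.

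**Figure D1:**
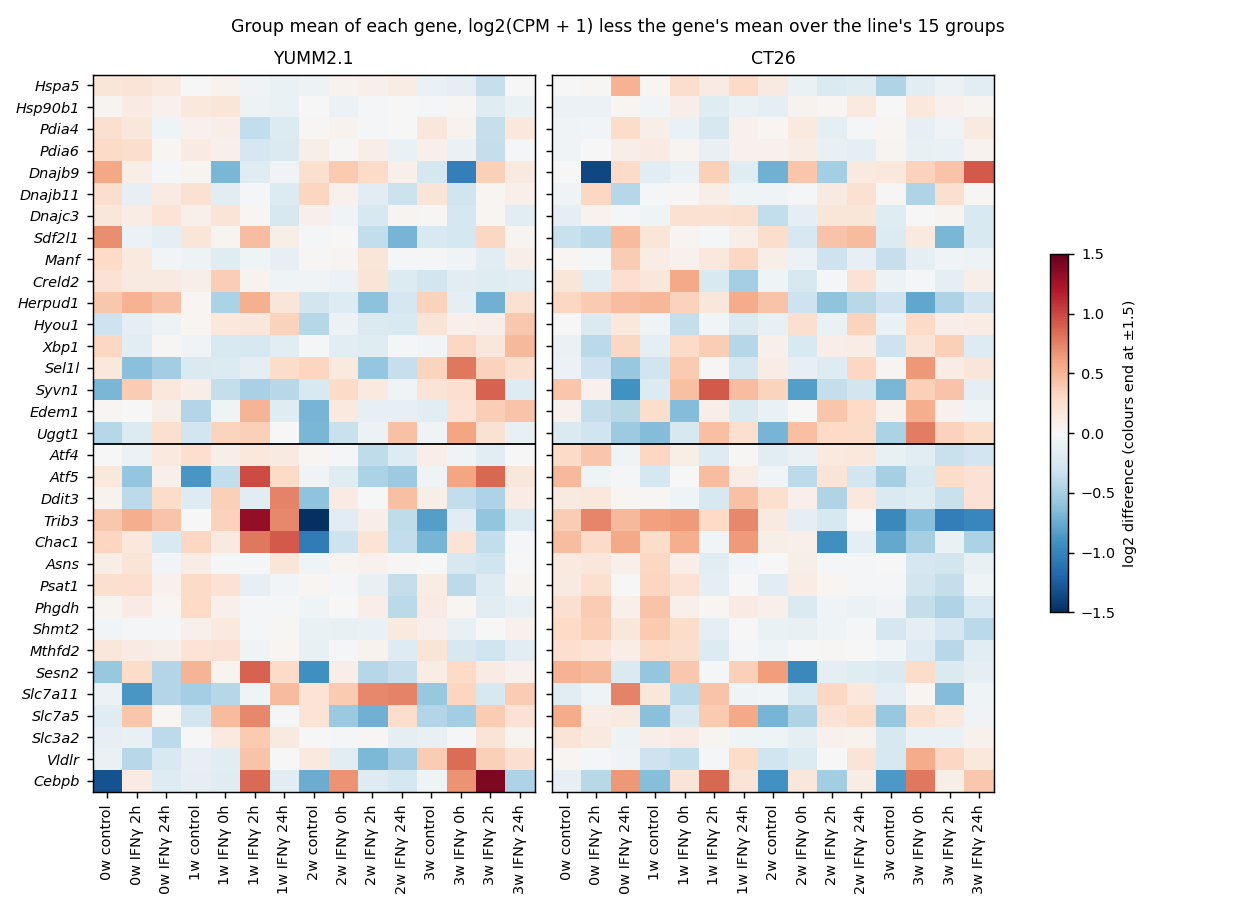
Group means of the 33 genes (rows; chaperone genes above the line, ATF4 genes below it) over the 15 groups of YUMM2.1 (left) and CT26 (right), as log2(CPM + 1) less each gene's mean over the 15 groups of the line. Trib3 in CT26 is high in the groups of week 0 and week 1 and low in week 3, while rows with few reads, such as Cebpb, change from group to group.

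The largest contrast among these genes lay between the lines. In the 0-week controls, before any IFNγ, 14 of the 16 ATF4 genes were lower in YUMM2.1 than in CT26 and 0 higher, whereas of the 17 chaperone genes 8 were higher and 2 lower. Of all 10339 genes tested, 25.9% were called higher and 20.1% lower in YUMM2.1. The median log2 fold change was -1.71 over the ATF4 genes and 0.61 over the chaperone genes, beside 0.08 over all genes. Scaling by library totals in place of TMM moved the median of all genes to 0.24 and gave 13 ATF4 genes lower and 0 higher, with 10 chaperone genes higher and 1 lower. The calls over all genes were then 3203 higher and 1701 lower, in place of 2680 and 2075.

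Atf4 mRNA, which encodes the transcription factor itself, measured 56.4, 53.2 and 44.99 CPM in the YUMM2.1 controls and 257, 279 and 279 CPM in the CT26 controls. The groups did not overlap, and the difference was -2.40 ± 0.16 on the log2 scale (SE; adjusted p = 6.65e-23, edgeR). Phgdh, the first enzyme of serine synthesis, stood at 184, 157 and 178 CPM against 782, 716 and 786 CPM (-2.13 ± 0.12, adjusted p = 4.99e-26). Mthfd2, of the mitochondrial folate pathway, stood at 161, 119 and 169 CPM against 402, 354 and 372 CPM (-1.31 ± 0.13, adjusted p = 1.54e-14). In each of these genes every YUMM2.1 control lay below every CT26 control. Shmt2, the mitochondrial enzyme that takes one-carbon units from serine, stood at 82.97, 69.1 and 90.6 CPM against 221, 219 and 233 CPM (-1.46 ± 0.15, adjusted p = 5.30e-14). Asns, asparagine synthetase, stood at 254, 237 and 268 CPM against 687, 563 and 596 CPM (-1.28 ± 0.14, adjusted p = 1.05e-12). Chac1, which degrades glutathione, stood at 2.09, 6.79 and 2.50 CPM against 36.8, 33.7 and 37.95 CPM (-3.43 ± 0.41, adjusted p = 3.74e-11). These groups did not overlap either, and the YUMM2.1 level of Chac1 rests on at most 6 counts per sample.

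The other ATF4 genes lower in YUMM2.1 were Trib3 (-2.33 ± 0.30), the stress-regulated transcription factor Atf5 (-1.96 ± 0.42), Psat1, the second enzyme of serine synthesis (-0.40 ± 0.12), the leucine sensor Sesn2 (-2.68 ± 0.70), the amino acid carrier subunits Slc7a5 (-2.15 ± 0.47) and Slc3a2 (-0.49 ± 0.13), the lipoprotein receptor Vldlr (-1.42 ± 0.40, with overlapping samples) and Cebpb, a C/EBP transcription factor. Cebpb had 1 count over the 3 YUMM2.1 controls and 15 over the 3 CT26 controls, a ratio of 15.2 with an exact 95% interval from 2.34 to 639.8 that covers counting error only. The YUMM2.1 level of Sesn2 rests on at most 4 counts per sample. The call on Slc3a2 was lost with library totals and without replicate 2, that on Vldlr without replicate 3, and that on Cebpb without replicate 1 or 3. Ddit3, which encodes the death-linked factor CHOP, was not called, with 24.5, 30.6 and 29.4 CPM against 46.7, 31.03 and 36.02 CPM (-0.44 ± 0.26, adjusted p = 0.163). Slc7a11, the cystine carrier, was not called either and had the one positive value (0.95 ± 0.53, adjusted p = 0.137).

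Among the chaperone genes Pdia4, a disulphide isomerase, had the smallest adjusted p, at 426, 435 and 479 CPM in YUMM2.1 against 168, 148 and 162 CPM in CT26 (1.49 ± 0.14, adjusted p = 6.36e-15). Manf, a secreted ER protein, stood at 237, 266 and 253 CPM against 94.2, 87.7 and 88.1 CPM (1.48 ± 0.17, adjusted p = 3.78e-12). Hsp90b1 stood at 1237, 1106 and 1333 CPM against 799, 756 and 759 CPM (0.67 ± 0.11, adjusted p = 1.89e-07). In these genes each YUMM2.1 control was above each CT26 control. Pdia6, another disulphide isomerase, stood at 729, 778 and 716 CPM against 518, 469 and 473 CPM (0.61 ± 0.12, adjusted p = 1.22e-05). Xbp1, the transcription factor activated by IRE1, stood at 22.96, 27.2 and 18.7 CPM against 11.5, 7.42 and 8.36 CPM (1.32 ± 0.33, adjusted p = 5.31e-04). Counts per gene do not measure that activation. Herpud1, a membrane protein of ER-associated degradation, went the other way, at 29.7, 29.4 and 29.99 CPM in YUMM2.1 against 74.3, 70.8 and 68.2 CPM in CT26 (-1.25 ± 0.22, adjusted p = 1.22e-06). Among the chaperone-list members with a window, Herpud1 was the one with a CARE match. Its window had no match to the ERSE as searched, and variants of that element with another spacing were not searched. Whether ATF4 or an ER stress element sets the level of Herpud1 was not tested. The remaining calls were the BiP co-chaperone Dnajb11 (1.11 ± 0.29), the ER protein Sdf2l1 (1.75 ± 0.67), the degradation subunit Sel1l (1.06 ± 0.45) and, in the other direction, the chaperone Hyou1 (-0.81 ± 0.29). Sel1l and Hyou1 were not called without any one of the 3 replicate numbers, Sdf2l1 not without replicate 1 or 3, and Dnajb11 not without replicate 1. The CT26 level of Sdf2l1 rests on at most 6 counts per sample. Without replicate 1, 5 chaperone genes were called higher and 1 lower. Hspa5, the main ER chaperone, was not called, at 429, 454 and 416 CPM in YUMM2.1 against 430.3, 359.5 and 408 CPM in CT26 (0.12 ± 0.11, adjusted p = 0.405). The other 6 chaperone genes not called lay between -0.68 (Syvn1) and 1.43 (Dnajb9) on the log2 scale.

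**Figure D2:**
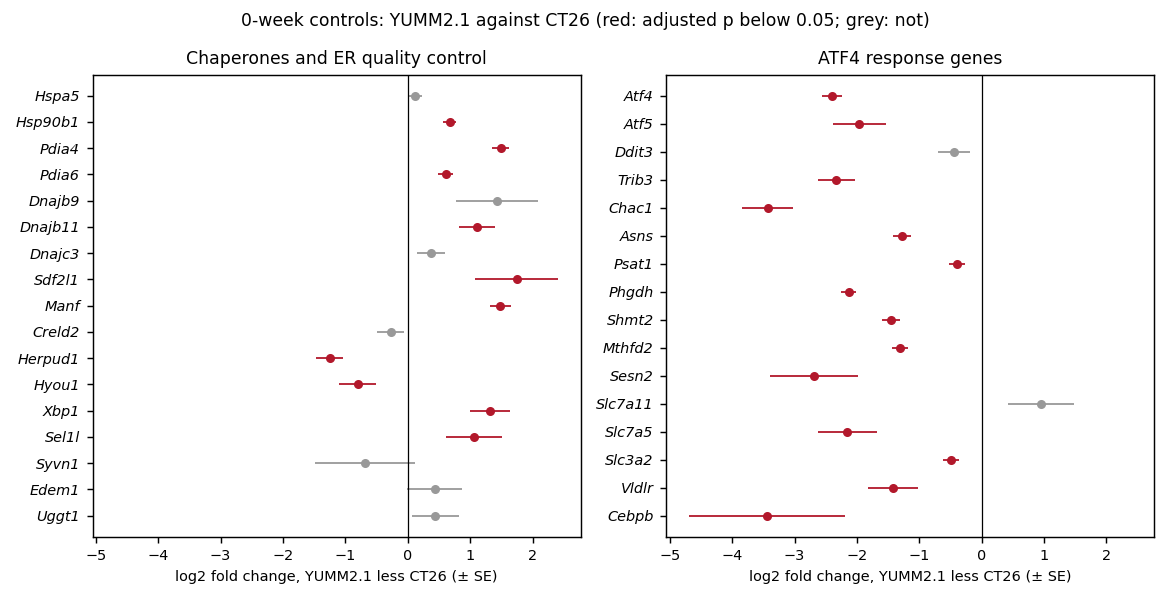
Log2 fold change between the 0-week controls, YUMM2.1 less CT26, for the 17 chaperone genes and the 16 ATF4 genes. Points are edgeR estimates from 3 samples per line with their SE, coloured where the adjusted p is below 0.05. Of the ATF4 genes 14 are called below 0 and 0 above it, while 8 chaperone genes are called above 0 and 2 below.

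The same comparison was made, after the 0-week result had been seen, in the controls of 1, 2 and 3 weeks, which are separate samples. At 1 week 11 of 16 ATF4 genes were lower and 0 higher, and 6 chaperone genes were higher and 1 lower, beside 29.8% of all genes higher and 19.4% lower. At 2 weeks 11 ATF4 genes were lower and 0 higher, and 7 chaperone genes were higher and 3 lower, beside 26.1% higher and 18.5% lower. At 3 weeks 10 ATF4 genes were lower and 0 higher, and 10 chaperone genes were higher and 2 lower, beside 29.5% higher and 19.7% lower. The chaperone counts moved by over 1.5 times in some alternatives. Without replicate 1, 2 or 3 the number called higher was 5, 3 and 6 at 1 week, 3, 5 and 4 at 2 weeks (4 with DESeq2 or no filter) and 5, 4 and 6 at 3 weeks, and the number called lower was 0 to 2. With no filter 4 were higher at 1 week. The shares of all genes called in these alternatives are not given here, so these chaperone counts have no background beside them. At 2 weeks 1 ATF4 gene was called higher with library totals, and 1 when the compared groups were fitted alone. The median over the ATF4 genes was -1.23, -1.25 and -0.94 at 1, 2 and 3 weeks, beside 0.24, 0.20 and 0.23 over all genes. Atf4 differed by -2.17 ± 0.14, -1.93 ± 0.16 and -1.92 ± 0.15, and Phgdh by -2.07 ± 0.12, -2.07 ± 0.12 and -1.76 ± 0.12. With library totals the median of all genes was 0.44, 0.45 and 0.41, and at 2 weeks the calls over all genes were 3526 higher and 1507 lower in place of 2698 and 1912.

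Over all 45 samples of each line, whatever the treatment, 5 ATF4 genes had their highest YUMM2.1 sample below their lowest CT26 sample, beside 5.46% of all genes. They were Atf4, Chac1, Asns, Phgdh and Mthfd2. Atf4 in YUMM2.1 ran from 26.9 to 67.03 CPM (median 52.3) and from 144 to 318 CPM in CT26 (median 219). Phgdh ran from 106 to 217 CPM (median 171) and from 396 to 885 CPM (median 642). Of the chaperone genes Pdia4 alone was apart in the other direction, at 229 to 479 CPM in YUMM2.1 (median 384) and 94.7 to 221 CPM in CT26 (median 163), beside 6.31% of all genes.

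The wider pathway was followed with lists that hold none of the 33 genes. In the 0-week controls 25.9% of all genes were called higher in YUMM2.1 and 20.1% lower. Of 27 tested further ATF4 targets (37 listed), 16 were lower in the 0-week YUMM2.1 controls and 2 higher, with Slc1a5, the glutamine carrier, furthest apart at a mean of 3.23 CPM in YUMM2.1 against 117 CPM in CT26 (-4.91). Of 28 tested further ER folding genes (31 listed), 12 were higher and 6 lower, with the prolyl isomerase Fkbp14 (3.83), the oxidase Ero1b (-3.34) and the membrane-bound transcription factor Creb3l2 (2.79) furthest apart. Of 6 sensors and regulators tested, 2 were lower. Atf6 was one of them (15.4 against 24.7 CPM, -0.72 ± 0.30, adjusted p = 0.0450), Eif2ak2 was not called (-0.21 ± 0.25, adjusted p = 0.539), and Ern1, Eif2ak3 and Eif2ak4 had too few reads for this test.

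The comparisons with IFNγ ask whether the cytokine moved these genes. In YUMM2.1 no member was called by edgeR in naive cells, in chronically exposed cells against controls of the same week, or after rechallenge against the same cells without it. The shares of all 9589 genes called were 0.240% and 0.886% in naive cells at 2 h and 24 h, 0.730%, 1.12% and 0.970% after 1, 2 and 3 weeks of IFNγ, 0.615%, 0.428% and 1.08% after a rechallenge of 2 h in weeks 1, 2 and 3, and 1.42%, 0.615% and 0% after one of 24 h. Between 0 and 8 of the 32 members had an unadjusted p below 0.05, beside 348 to 1156 of the 9589 genes. The 8 members were found 2 h after rechallenge in week 1, beside 1065 genes. DESeq2 called a member in 1 of these comparisons (Pdia4, 2 h of rechallenge in week 1). With library totals the split of all genes changed after 3 weeks of IFNγ from 69 higher and 24 lower to 84 and 13. Outside the 33 genes, Nupr1, a stress-induced chromatin protein, rose in YUMM2.1 upon rechallenge. It went from 24.8, 28.8 and 25.9 CPM to 52.7, 47.7 and 52.8 CPM after 2 h in week 1 (0.97, adjusted p = 0.0112) and to 50.6, 59.3 and 52.9 CPM after 24 h (1.05, adjusted p = 0.00219). In week 2 it went from 34.02, 40.4 and 27.7 CPM to 62.1, 57.8 and 73.2 CPM after 2 h (0.95, adjusted p = 0.00968). The groups did not overlap in these comparisons, and each call was lost without 2 of the 3 replicate numbers.

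In CT26 there were 5 such comparisons with 1 member called in each. Hspa5 rose in naive cells after 24 h, from 430.3, 359.5 and 408 CPM to 613, 629.8 and 487 CPM (0.54 ± 0.12, adjusted p = 0.00245, beside 2.04% of 8516 genes called). The treated samples were all above the controls. Herpud1 was lower after 2 weeks of IFNγ, at 53.3, 47.3 and 36.8 CPM against 77.6, 79.9 and 72.8 CPM (-0.78 ± 0.20, adjusted p = 0.0292, beside 1.67%). Uggt1, the glucosyltransferase that returns misfolded glycoproteins to another round of folding, was higher after 3 weeks of IFNγ, at 15.1, 31.03 and 10.5 CPM against 5.16, 10.2 and 6.81 CPM (1.45 ± 0.44, adjusted p = 0.0353, beside 7.23%). The third of these treated samples was one of the shallow libraries, and Uggt1 was still called without them. Mthfd2 was lower 2 h after rechallenge in week 1, at 300.2, 255 and 269 CPM against 409.5, 415 and 320.02 CPM (-0.51 ± 0.11, adjusted p = 0.00982, beside 0.376%). Creld2, an ER protein with disulphide isomerase activity, was lower 24 h after rechallenge in week 1, at 19.5, 20.1 and 35.2 CPM against 32.3, 54.6 and 75.1 CPM (-0.96 ± 0.25, adjusted p = 0.0381, beside 1.32%). Its samples overlapped, the third reference sample was a shallow library, and the call was lost without the shallow libraries. Each of these 5 calls was lost without at least 2 of the 3 replicate numbers.

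No member was called by edgeR in CT26 naive cells after 2 h (0.235% of all genes called), after 1 week of IFNγ (0.728%), or upon rechallenge in week 2 (0.305% after 2 h, 0.658% after 24 h) and week 3 (0.0117% and 0%). Between 0 and 2 of the 30 members had an unadjusted p below 0.05 in these 6 comparisons, beside 310 to 624 of 8516 genes, and DESeq2 called 0 members. Among the sensors, Eif2ak2 rose in CT26 naive cells after 24 h, from 37.5, 47.9 and 28.9 CPM to 107, 110.4 and 99.9 CPM (1.48 ± 0.25, adjusted p = 3.94e-05), and was higher after 3 weeks of IFNγ, at 97.8, 76.4 and 185 CPM against 47.3, 39.2 and 36.2 CPM (1.42 ± 0.25, adjusted p = 7.73e-05). Both calls held in every alternative tried. In YUMM2.1 it was not called in these comparisons (0.60 ± 0.24, adjusted p = 0.549, and 0.49 ± 0.25, adjusted p = 0.488), and the difference between the lines was not called either (-0.92, adjusted p = 0.564, at 24 h and -1.01, adjusted p = 0.414, at 3 weeks). Atf6 was called in no comparison within a line, with log2 fold changes of -0.57 to 0.78 (YUMM2.1) and -0.60 to 0.83 (CT26), and Eif2ak3, tested in YUMM2.1, lay between -0.51 and 1.88 with no call. After 3 weeks of IFNγ in CT26, where 7.23% of all genes were called, Ero1b (-0.40) and Ssr3, of the translocon-associated complex (-0.56), were lower. The amino acid carrier Slc38a2 (0.87) and the folate enzyme Mthfd1l (1.31) were higher. Of 9 alternatives Ero1b lost its call in 5, Ssr3 and Slc38a2 in 3 each and Mthfd1l in 2. Library totals turned the split of all genes in that comparison from 293 higher and 323 lower to 461 and 120, and that after 2 weeks from 79 and 63 to 103 and 46.

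Within a line, 3 of the 16 ATF4 genes were called lower in CT26 after 3 weeks of culture, of which Trib3 held in every alternative tried. In the controls, which never met IFNγ, Trib3 stood at 37.5, 51.3 and 47.6 CPM in week 0, at 61.6, 56.3 and 42.6 CPM in week 1, at 44.3, 39.96 and 30.8 CPM in week 2 and at 12.9, 20.4 and 18.3 CPM in week 3. The 3-week samples lay below all the others. Against week 0 the difference was 0.22 ± 0.20 in week 1, -0.22 ± 0.21 in week 2 and -1.36 ± 0.22 in week 3 (adjusted p = 3.05e-04 for week 3). Chac1 stood at 36.8, 33.7 and 37.95 CPM in week 0 and at 15.5, 15.7 and 13.6 CPM in week 3 (-1.25 ± 0.25, adjusted p = 0.00292). Shmt2 stood at 221, 219 and 233 CPM in week 0 and at 144, 151 and 165 CPM in week 3 (-0.52 ± 0.13, adjusted p = 0.0381). These 3 were the members called at week 3, all ATF4 genes and all lower, with no overlap between the groups, beside 0.341% of all genes lower. The median over the 16 ATF4 genes was -0.38, beside 0.00 over all genes, and 15 of the 16 values were negative. The 14 chaperone genes had a median of -0.04 and no call, with Hspa5 at 316, 295 and 275 CPM in week 3. Of the further lists Aldh18a1, of proline synthesis (-0.84), and the translocon subunit Sec61b (-0.46) were lower. Both calls were lost with no filter and without any one of the 3 replicate numbers.

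No member was called by edgeR in the CT26 controls of week 1 (0.0117% of all genes called) or week 2 (0.247%), and DESeq2 called 0. In these weeks 1 and 5 of the 30 members had an unadjusted p below 0.05, beside 686 and 903 of 8516 genes. At week 3 DESeq2 called 5 members and library totals 6, while only Trib3 was called without any one of the 3 replicate numbers. The number of all genes called is not given here for DESeq2 or for the fits without a replicate. With library totals the split of all genes was 47 higher and 65 lower at week 3, in place of 49 and 29, and 15 and 6 at week 2, in place of 20 and 1.

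Cells rechallenged after 3 weeks of IFNγ were also set against naive cells given IFNγ for the same time, a comparison that holds both the IFNγ history and 3 weeks of culture. In CT26 at 2 h, 7 of 16 ATF4 genes and 1 of 14 chaperone genes were lower and 0 higher, beside 6.00% of all genes lower. Trib3 stood at 55.7, 52.1 and 67.3 CPM in naive cells and at 17.2, 14.1 and 17.8 CPM after 3 weeks (-1.81 ± 0.24, adjusted p = 3.60e-07). Phgdh stood at 847, 826 and 849 CPM and then 523, 396 and 495 CPM (-0.81 ± 0.10, adjusted p = 8.98e-08). Mthfd2 stood at 375, 378 and 343 CPM and then 249, 234 and 229.9 CPM (-0.60 ± 0.11, adjusted p = 8.83e-05). In these 3 genes the groups were apart and the calls held in every alternative tried; without replicate 1 they were the 3 calls left. Psat1 stood at 412, 417 and 455 CPM and then 280.4, 219 and 342 CPM (-0.59 ± 0.11, adjusted p = 3.26e-04). Atf4 stood at 318, 293 and 279 CPM and then 176, 211 and 144 CPM (-0.72 ± 0.14, adjusted p = 4.16e-04). Shmt2 stood at 229.7, 242 and 234 CPM and then 158, 164 and 138 CPM (-0.59 ± 0.14, adjusted p = 0.00283). The other ATF4 gene called was Asns, which like Shmt2 was not called with library totals (-0.42 ± 0.12, adjusted p = 0.0132). The chaperone-list member was Herpud1, at 80.1, 70.6 and 74.5 CPM and then 37.8, 44.6 and 41.1 CPM (-0.85 ± 0.21, adjusted p = 0.00530). The median was -0.54 over the ATF4 genes and 0.03 over the chaperone genes, beside 0.04 over all genes. Library totals changed the split of all genes from 365 higher and 511 lower to 563 and 186.

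At 24 h in CT26, 3 ATF4 genes and 1 chaperone gene were lower and 0 higher, beside 2.00% of all genes lower. Trib3 stood at 50.4, 45.2 and 51.2 CPM in naive cells and at 19.4, 23.5 and 8.50 CPM after 3 weeks (-1.53 ± 0.26, adjusted p = 5.06e-04). Chac1 stood at 35.7, 34.4 and 47.2 CPM and then 18.03, 23.5 and 14.2 CPM (-1.11 ± 0.27, adjusted p = 0.0163). Shmt2 stood at 176, 205 and 237 CPM and then 108, 131 and 176 CPM (-0.58 ± 0.14, adjusted p = 0.0164). The groups of these ATF4 genes did not overlap. Hspa5 stood at 613, 629.8 and 487 CPM and then 337, 348 and 390.1 CPM (-0.67 ± 0.12, adjusted p = 9.18e-04), and this comparison shares its naive samples with the rise of Hspa5 at 24 h. None of the 4 was called without replicate 1. Of 27 further ATF4 targets, 5 were lower at 2 h and 4 at 24 h, and 0 were higher, and of 24 further ER folding genes 2 and 3 were lower and 0 higher. Of all genes 6.00% were lower at 2 h and 2.00% at 24 h. Fkbp2, an ER prolyl isomerase (-0.89), Psph, the last enzyme of serine synthesis (-0.73), the translation repressor Eif4ebp1 (-0.61) and the cysteinyl-tRNA synthetase Cars (-0.61) had the largest values at 2 h. Fkbp2 (-0.71), the disulphide isomerase Pdia3 (-0.71), the mitochondrial carboxykinase Pck2 (-0.61) and the threonyl-tRNA synthetase Tars (-0.60) had them at 24 h. Without replicate 1 these calls were lost at both times, except that on Psph at 2 h, which held in every alternative tried. Eif2ak2 was higher at 2 h (1.02 ± 0.24, adjusted p = 0.00340). At 24 h library totals changed the split of all genes from 41 higher and 170 lower to 102 and 121.

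In YUMM2.1 the 2 h comparison called 4 of 17 chaperone genes and 2 of 15 ATF4 genes lower, beside 3.09% of all genes, and 1 ATF4 gene higher, beside 5.02%. Pdia6 stood at 714, 688 and 776 CPM in naive cells and at 512, 363 and 539.5 CPM after 3 weeks (-0.56 ± 0.11, adjusted p = 5.31e-04), a call that held in every alternative tried. Herpud1 stood at 24.9, 31.96 and 40.4 CPM and then 12.2, 11.96 and 15.3 CPM (-1.21 ± 0.26, adjusted p = 0.00221). Hspa5 stood at 435, 433 and 441 CPM and then 275, 288 and 336 CPM (-0.47 ± 0.11, adjusted p = 0.00507). The groups did not overlap in these chaperone genes or in Pdia4, at 453, 385 and 436 CPM and then 305, 229 and 355 CPM (-0.45 ± 0.12, adjusted p = 0.0148). Among the ATF4 genes Psat1 went from 313, 294 and 304 to 241, 187 and 238 CPM (-0.38 ± 0.12, adjusted p = 0.0347). Asns went from 295, 231 and 281 to 219.8, 142 and 212 CPM (-0.43 ± 0.14, adjusted p = 0.0423). Atf5 was higher after 3 weeks, at 10.96, 27.3 and 10.6 CPM against 5.15, 8.16 and 2.84 CPM (1.68 ± 0.45, adjusted p = 0.0147), and its reads may be mixed with those of an overlapping gene. Trib3 was not called, at 10.7, 12.2 and 6.39 CPM in naive cells and 3.87, 5.12 and 2.66 CPM after 3 weeks. Fitting the compared groups alone left 2 of the 7 calls, Pdia6 and Herpud1, and leaving out replicate 1 or replicate 2 left Pdia6. Neither ATF4 gene was called lower with library totals or with no filter. Library totals changed the split of all genes from 481 higher and 296 lower to 642 and 143.

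Of 26 further ATF4 targets in that comparison the autophagy receptor Sqstm1 (1.17), the glycyl-tRNA synthetase Gars (0.93) and Mthfd1l (0.79) were higher and the isoleucyl-tRNA synthetase Iars (-0.45) lower. Each of these calls was lost with the compared groups alone and without replicate 1. Of all genes 5.02% were higher there and 3.09% lower. At 24 h no member was called by edgeR or DESeq2 in YUMM2.1, beside 0.813% of all genes. An unadjusted p below 0.05 was found there for 1 of 32 members and for 901 of all 9589 genes. No member was called by either in the YUMM2.1 controls of week 1 (0.0730%), week 2 (0.0209%) or week 3 (0.521%). In these weeks 4, 4 and 6 of 32 members had an unadjusted p below 0.05, beside 762, 442 and 799 of all 9589 genes.

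**Figure D3:**
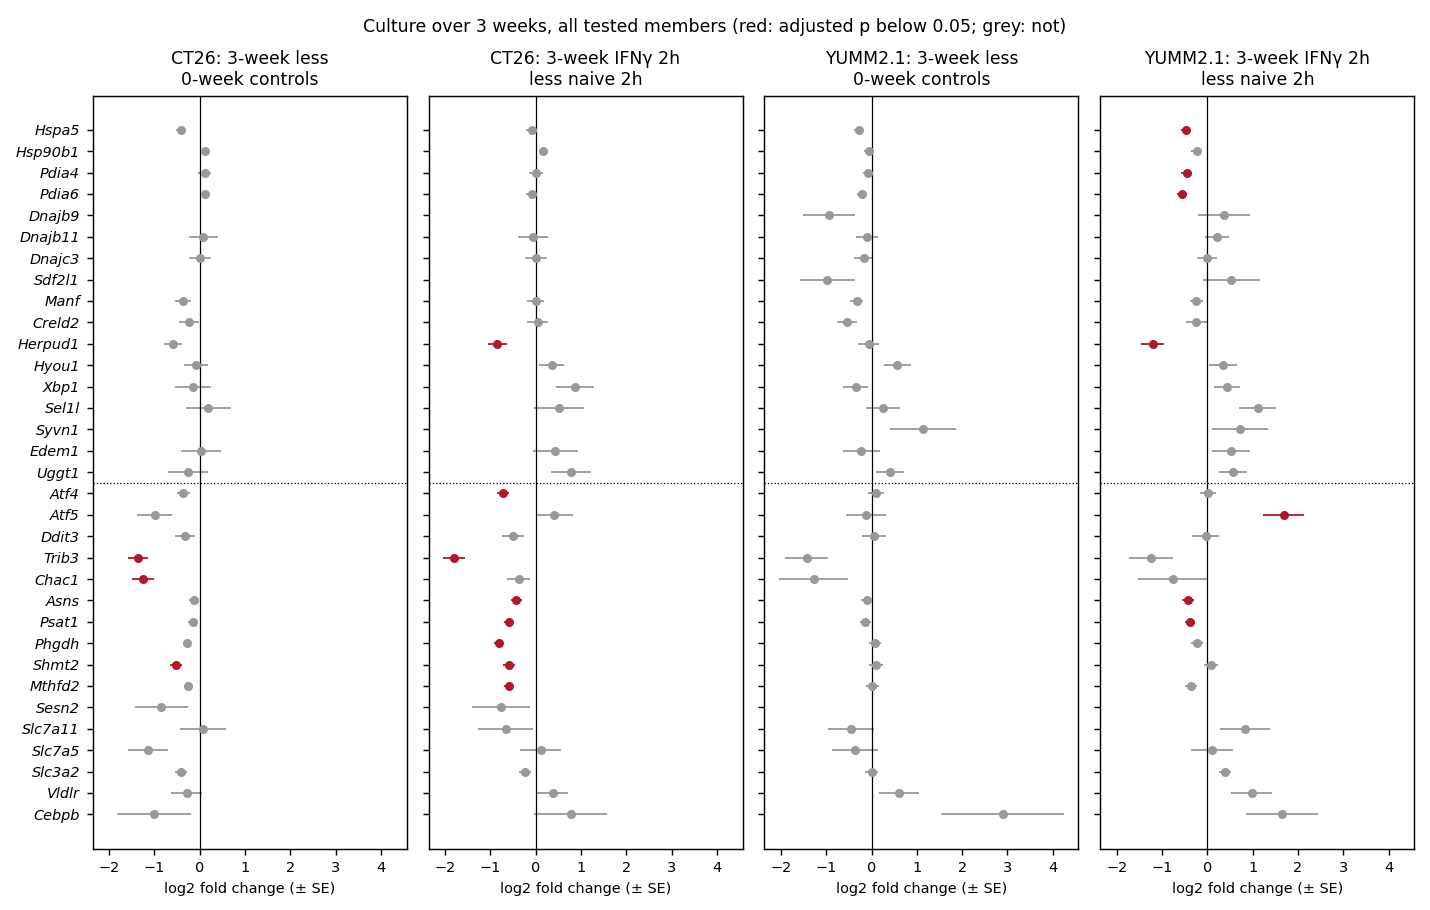
Log2 fold change with SE of every tested member in CT26 and YUMM2.1, for 3-week against 0-week controls and for 2 h of IFNγ after 3 weeks of exposure against 2 h in naive cells, coloured where the adjusted p is below 0.05. At 2 h in CT26 7 ATF4 genes and Herpud1 are called below 0, and in YUMM2.1 4 chaperone genes, Asns and Psat1 are called below 0 and Atf5 above it.

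To set the IFNγ history apart from time in culture, the change of the controls over 3 weeks was subtracted from the difference against naive cells in 1 model, a comparison chosen after the results above had been seen. In CT26 at 2 h Phgdh was lower (-0.54 ± 0.14, adjusted p = 0.0229) and no other member was called, beside 3.89% of all genes. Trib3 then differed by -0.45 ± 0.34 (adjusted p = 0.479) and Atf4 by -0.36 ± 0.20 (adjusted p = 0.291). With library totals, or without any one of the 3 replicate numbers, Phgdh was not called, and library totals moved the median of all genes from 0.01 to 0.27 and the split from 161 higher and 170 lower to 218 and 27. Ssr3 (-0.65) and Eif4ebp1 (-0.59) were lower as well, and both calls were lost under the same settings. At 24 h no member of CT26 was called by edgeR or DESeq2, beside 0% of all genes. An unadjusted p below 0.05 was found there for 2 members and for 911 of 8516 genes. In YUMM2.1 neither tool called a member at 2 h (0.647% of all genes) or 24 h (0.0939%). There 4 and 3 members had an unadjusted p below 0.05, beside 1243 and 397 of 9589 genes.

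**Figure D4:**
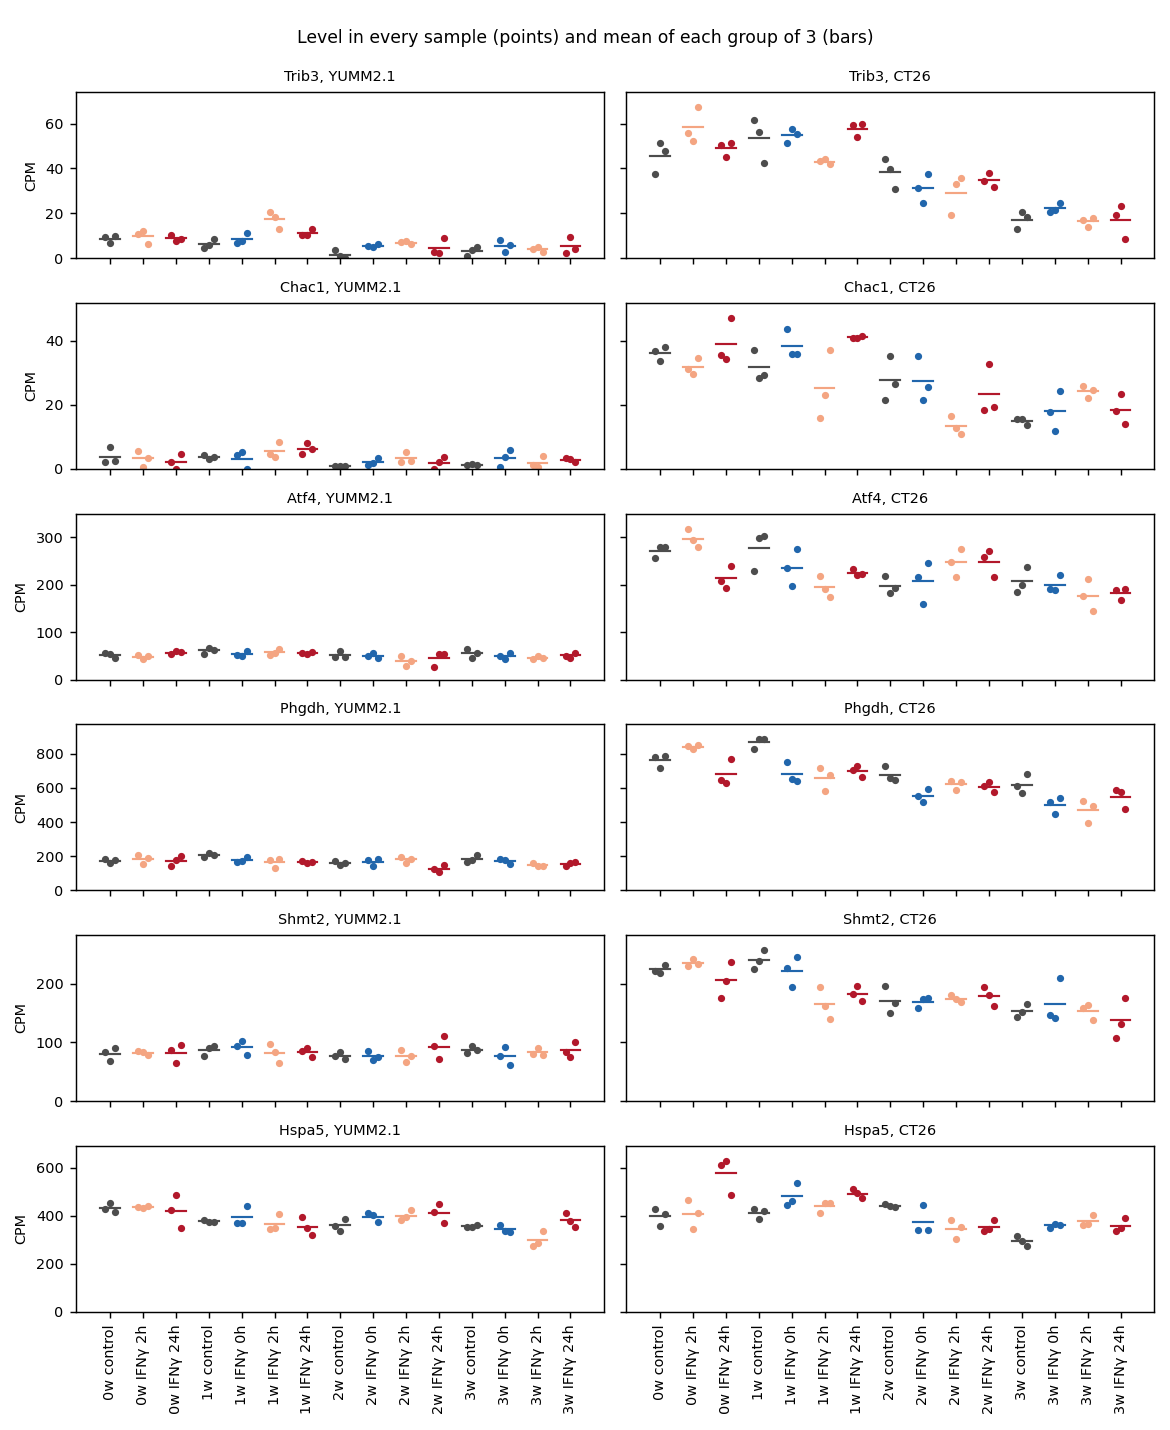
Level in CPM of Trib3, Chac1, Atf4, Phgdh, Shmt2 and Hspa5 in every sample (points) with the mean of each group of 3 (bars), in YUMM2.1 and CT26 over the 15 groups. Every CT26 sample of Atf4, Chac1 and Phgdh lies above every YUMM2.1 sample, and Trib3 in CT26 is lowest in the 4 groups of week 3.

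Whether a change differed between the lines was tested directly for the naive, chronic and 3-week control comparisons. No member was called by edgeR in any of the 6, beside 0% and 0.0870% of all 10339 genes at 2 h and 24 h in naive cells, 0.0580%, 0.280% and 0.106% after 1, 2 and 3 weeks of IFNγ, and 0.184% in the 3-week controls. Between 0 and 6 of the 33 members had an unadjusted p below 0.05, beside 338 to 856 of the 10339 genes. DESeq2 called 1 member, Hspa5 at 24 h. In edgeR that difference was -0.57 ± 0.15 (YUMM2.1 less CT26, adjusted p = 0.215). The change of Trib3 in the 3-week controls, called in CT26, was -1.43 ± 0.48 in YUMM2.1 (adjusted p = 0.239), with 9.39, 6.79 and 10.00 CPM in week 0 and 0.843, 3.72 and 4.93 CPM in week 3, and the difference between the lines was -0.04 (adjusted p = 1.00).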

How the data were processed

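RNA of 90 samples was measured by 3′ digital gene expression. The authors deposited 1 table of whole-number counts per gene and sample; the submitters' processing notes name Salmon 0.13.1 and mm10, and the study's methods name tximport. How molecular identifiers and strand entered the counts is not given in the sources used here. The study set aside some samples of each line without naming them, so all 90 were kept. Symbols were taken from GENCODE M21, and promoters from RefSeq.

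From the deposited counts, genes passing filterByExpr by group were fitted with edgeR 4.0.16 (R 4.3.3; TMM, quasi-likelihood test) over the 15 groups of a line, or over all 90 samples for differences between lines, and p-values were adjusted over all genes tested (9589, 8516 and 10339 genes). The SE is the log2 fold change divided by the root of the F statistic. CPM levels used TMM over the 90 samples. Alternatives were DESeq2 1.42.0, library totals, no filter, the compared groups alone, a replicate block, leaving out each replicate number from every group, and leaving out libraries below 25% of their line's median total. The later-week line comparison and the comparison net of controls were added after seeing the data. The scripts were tested on simulated counts.

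The members and lists were chosen with earlier results of these data known. Members called are named, with every sample's value for at most 6 per comparison and list by smallest adjusted p, and of other pathway genes, besides Eif2ak2, Eif2ak3, Eif2ak4, Ern1 and Atf6, at most 4 called per comparison by largest fold change. Promoters shown are those of the 4 members of each list with the most calls, leaving out the comparisons added after seeing the data. By that count Asns, Mthfd2, Chac1 and Psat1 were tied at 3 calls, and the first 2 were taken by smallest adjusted p.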

Additional observations from a re-analysis of the deposited data

Results flagged for a closer look

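In the 6 comparisons where the difference between the lines was tested (naive cells, chronic exposure and the 3-week controls), edgeR called it for 0 of the 33 genes. It was not tested for rechallenge, for the comparisons with naive cells or net of controls. Of the further ER folding genes Sec61b, a subunit of the translocon through which proteins enter the ER, was called in 2 of the 6. After 2 weeks of IFNγ it stood at 157, 169 and 147 CPM against 288, 259 and 261 CPM in the CT26 controls, and at 358, 282 and 329 CPM against 334, 347 and 295 CPM in YUMM2.1. The difference in log2 fold change, YUMM2.1 less CT26, was 0.77 ± 0.17 (SE; adjusted p = 0.0142, edgeR). In the 3-week controls against week 0 it went from 258, 209 and 231 to 158, 152 and 184 CPM in CT26 and from 303, 269.5 and 313 to 353, 372 and 375 CPM in YUMM2.1, and the difference was 0.80 ± 0.17 (adjusted p = 0.0120).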

How the results depend on the processing

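Of 46 counts of called members, 29 stayed within 1.5 times of the reported value in every alternative. Of the counts above 0, only those between the lines at 0 weeks (24) and 1 week (18) stayed so, and the others that stayed were 0 throughout. Of 1308 alternative values for single genes 1046 kept their call, 262 lost it and 0 changed sign. In YUMM2.1, rechallenge of 2 h in week 1 went from 0 to 1 with DESeq2, that in week 3 from 0 to 1 with library totals (0 to 1 leaving out a replicate), and the 2 h comparison with naive cells from 7 to 2 with the compared groups alone (1 to 6). In CT26, naive cells at 24 h gave 1 (0 to 1 leaving out a replicate). After 2 weeks of IFNγ the count went from 1 to 2 with DESeq2 and to 0 with library totals or no filter (0 leaving out any replicate). After 3 weeks it went from 1 to 2 with DESeq2, to 3 with library totals, to 0 with the compared groups alone and to 2 without the shallow libraries (0 leaving out any replicate). Rechallenge in week 1 went from 1 to 0 at 2 h with no filter or the compared groups alone (0 to 1), and from 1 to 0 at 24 h with library totals, no filter or the compared groups alone (0). Controls went from 0 to 1 in week 1 with no filter, from 0 to 1 in week 2 with no filter or the compared groups alone, and in week 3 from 3 to 5 with DESeq2 and 6 with library totals or the compared groups alone (1 leaving out any replicate). Against naive cells the count of 8 at 2 h ran from 3 to 8 leaving out a replicate, and 4 at 24 h became 2 with no filter and 1 with the compared groups alone (0 to 3). Net of controls at 2 h, 1 became 2 with the compared groups alone (0 to 1). Between the lines, 21 at 2 weeks and 22 at 3 weeks ran from 13 to 17 and from 14 to 16 leaving out a replicate, and the difference in naive cells at 24 h went from 0 to 1 with DESeq2. The cause of these changes was not tested. Apart from the splits with library totals given above, the shares of all genes called in these alternatives are not given here.

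Over all pairs of groups, deviations of same-numbered samples from their group means correlated with a median r of 0.00502 in YUMM2.1 and 0.0137 in CT26. Single pairs ran from -0.409 to 0.516 and from -0.373 to 0.484, with 58 and 73 of 315 pairs over 0.1. The medians therefore do not show whether samples of some groups were paired. With the replicate block, 2 members in place of 1 were called after 3 weeks of IFNγ in CT26, and no other count moved by over 1.5 times. Depth limits the genes with few reads most, since members such as Dnajb9, Syvn1 and Cebpb had libraries with 0 counts.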
